A study of Mus musculus with 27 samples.

Results

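Neurog2, Atoh7, Neurod1, Neurod4, Hes6, Insm1, Dll3 and Gadd45g are 8 proneural and neurogenic factors, chosen by name from a count table of 55487 genes. The choice was made with earlier results of these data known. All 8 were found in the table, and they were followed in 27 RNA libraries of the mouse optic stalk at embryonic day 14. Laser capture took a dorsal piece, a ventral piece and a piece rich in retinal ganglion cell (RGC) axons from each of 4 control and 5 mutant embryos. The mutants (Smarcc1-DCT-cKO) were homozygous for a loxP-flanked Smarcc1 allele and carried the Dct-Cre transgene, while the study describes its controls as littermates without Dct-Cre. The study's methods also name the Z/EG reporter line and a C57Bl6/J background, and the alleles of each single embryo were not read from a label. The Dct promoter that drives Cre is a pigment-cell promoter, and the study places its activity in the precursors of the pigmented epithelium and in the optic stalk. Smarcc1 (also Baf155) is a core component of BAF complexes, which move nucleosomes.

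Proneural proteins are basic helix-loop-helix (bHLH) transcription factors that bind short DNA motifs called E-boxes and start the conversion of dividing neural progenitors into neurons. A cell that becomes committed shows Notch ligands to its neighbours, whose Notch signal raises Hes1 and Hes5, and these in turn repress the proneural genes. In the retina Atoh7 is needed for RGC formation, while the optic stalk gives rise mainly to astrocytes of the optic nerve.

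Among the members, Neurog2 and Atoh7 are proneural bHLH factors, and Neurod1 and Neurod4 are related bHLH factors that act later in neuronal differentiation. Hes6 is a Hes family protein that opposes Hes1, Insm1 is a zinc-finger factor of newly formed neurons and neuroendocrine cells, Dll3 is a divergent Notch ligand that acts inside the cell, and Gadd45g is a stress and growth-arrest gene that is switched on in neuronal precursors. On mm10 with GENCODE release M21, Neurog2 lies at chr3:127633135-127635631 and Atoh7 at chr10:63099651-63101279. Neurod1 lies at chr2:79452521-79456751, Neurod4 at chr10:130268152-130280240, Hes6 at chr1:91411483-91414038 and Insm1 at chr2:146221921-146225020. Dll3 lies at chr7:28293553-28302238 and Gadd45g at chr13:51846678-51848468. All are protein-coding genes. Of the exonic bases of Neurod1, 13.01% are shared with Cerkl and Gm26755, so its counts are uncertain to that extent, and the other members share 0% with a neighbour.

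Hes6 and Gadd45g were the members with the highest median level per length in dorsal mutants. The 250 bases before their start sites are shown because the motif bound by proneural proteins can be read in them. They come from RefSeq on GRCm38.p6, read 5′ to 3′ on the gene's strand at chr1:91414039-91414288 (minus strand; the more upstream of 2 start sites) and chr13:51846425-51846674 (plus strand). Capitals mark each CANNTG, the general E-box, whose reverse complement is the same pattern.
Hes6: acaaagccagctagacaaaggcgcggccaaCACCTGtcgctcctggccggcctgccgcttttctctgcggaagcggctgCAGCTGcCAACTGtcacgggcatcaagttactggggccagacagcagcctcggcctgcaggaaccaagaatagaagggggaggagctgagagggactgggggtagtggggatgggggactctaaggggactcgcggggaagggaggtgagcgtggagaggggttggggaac
Gadd45g: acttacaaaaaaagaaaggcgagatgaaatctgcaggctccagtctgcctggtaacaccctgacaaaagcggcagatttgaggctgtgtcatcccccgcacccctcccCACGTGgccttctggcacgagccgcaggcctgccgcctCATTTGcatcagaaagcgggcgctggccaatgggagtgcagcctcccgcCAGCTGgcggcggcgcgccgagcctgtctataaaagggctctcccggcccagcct

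Each of these windows held 3 E-boxes. Of 32851 RefSeq windows of this length 12.2% held 3 or more, and 66.2% held at least 1. Both windows also held CAGCTG, a form of the motif that overlaps CANNTG and occurred in 13% of all windows. A match says only that these letters are present, and no binding was measured. RefSeq windows were matched for 7 of the 8 members. The Neurog2 window and both Neurod4 windows held 0 E-boxes, the Neurod1 window and that of the other Hes6 start site 1, the Dll3 window 2 and the Atoh7 window 3.

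The total count per library was 10.9 to 33.98 M (M, 1e6), so that 1 read was worth 0.0294 to 0.0917 counts per M counts (CPM). A library with 3 counts or fewer of a gene was treated as at the floor, which is 0.0883 to 0.275 CPM. Reads carry no molecular identifiers, so floors cover counting error only. Some libraries stood apart from the rest. Fgf15, which retinal progenitors express, was at 1046 CPM in the dorsal and 846 CPM in the ventral library of mutant 2, against at most 295 CPM elsewhere. Results that rest on mutant 2 are therefore given with and without it. In control 2 the 13 RGC and neuron genes summed to 1457 CPM dorsally and 1744 CPM ventrally. In the other dorsal and ventral libraries this sum was at most 625 CPM. Control 2 was kept in the main results. Smarcc1 itself was at 116, 75.9, 289 and 97.2 CPM in dorsal controls and at 94.9, 107, 2.26, 44.3 and 24.5 CPM in dorsal mutants, so the libraries labelled dorsal mutant 1 and 2 lay within the range of the controls. Its ventral and axon groups did not overlap (exact permutation p = 0.0159 in each), with 75.7 to 198 CPM against 14.7 to 64.4 CPM in ventral libraries and 50.1 to 242 CPM against 1.86 to 44.9 CPM in axon libraries. In edgeR none of the differences in Smarcc1 was called (adjusted p 0.95, 1.00 and 0.88). The stalk and astrocyte progenitor markers were found in every dorsal and ventral group. The 13 RGC and neuron genes summed to 1169 to 2883 CPM in axon libraries. In axon controls 3 of these genes were at the floor, and in axon mutants 4. Elavl4 and the RGC factor Pou4f2 were at the floor in both, and Pou4f2 was so in every other group except the ventral mutants.

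The comparison of genotypes in the dorsal stalk asked whether loss of Smarcc1 goes with expression of neurogenic genes. Apart from Hes6, the members were at or near the floor in most dorsal controls, and most of the 8 members were above it in each dorsal mutant. Of the 8 members, 1, 1, 1 and 3 had more than 3 counts in the 4 dorsal controls, and 6, 8, 6, 7 and 6 in the 5 dorsal mutants, while the number of all genes with more than 3 counts overlapped (9220 to 14201 and 11044 to 13299). The summed level of the members was 8.28 to 37.6 CPM in controls and 210 to 882 CPM in mutants. In the controls Hes6 made up nearly all of it except in control 4. Because the members were chosen with earlier results of these data known, these contrasts are a description and no support. Because RNA was pooled from all cells of a piece, more cells of a kind and more RNA per cell cannot be told apart.

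**Figure D1:**
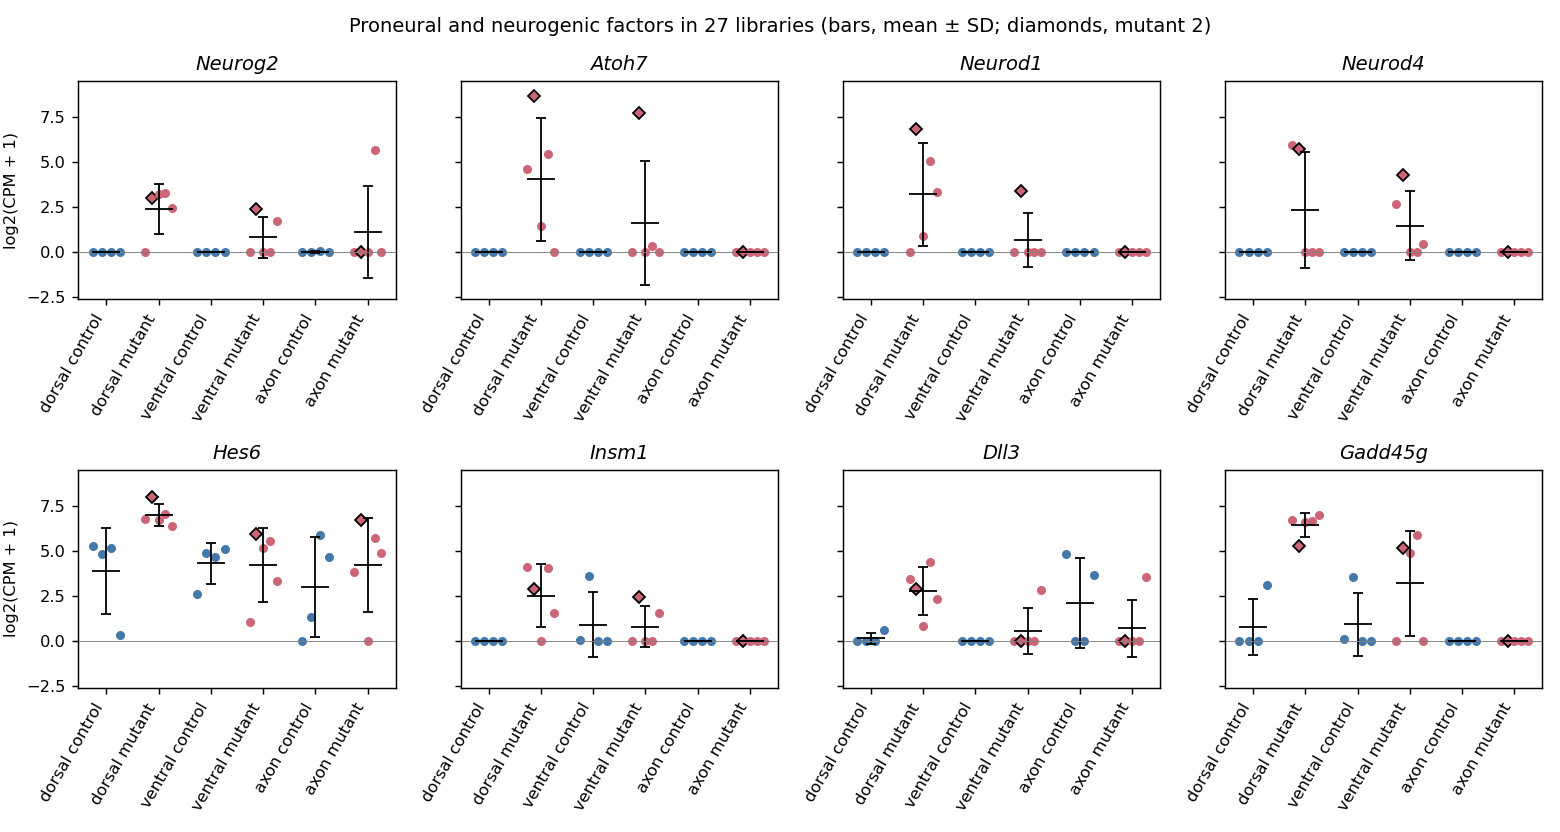
Level of each member as log2(CPM + 1) in the 27 libraries (points; diamonds, mutant 2) by region and genotype, with mean ± SD of 4 control (blue) or 5 mutant (red) libraries. Neurog2, Atoh7, Neurod1, Neurod4 and Insm1 sit at 0 in all dorsal controls, and Hes6, Dll3 and Gadd45g are higher in every dorsal mutant than in any dorsal control.

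Of the proneural factors, Neurog2 was at 0 CPM in all 4 dorsal controls and at 0, 7.03, 8.55, 8.69 and 4.45 CPM in dorsal mutants 1 to 5. It was thus found in 4 of 5 mutants, at similar low levels, and missing from mutant 1. Against the floor of the controls its mutant mean of 5.75 ± 3.64 CPM (SD, n = 5) was at least 33.3-fold higher, and at least 31.5-fold without mutant 2.

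Atoh7 was also at 0 CPM in all dorsal controls, and its mutant libraries held 24.0, 405, 1.77, 43.0 and 0 CPM. Mutant 2 alone gave 85.5% of the summed level. The mutant mean was 94.7 ± 174 CPM (SD, n = 5), at least 549-fold over the floor of the controls, and 17.2 ± 20.4 CPM (SD, n = 4) or at least 99.7-fold without mutant 2. The factor stayed above the floor in 3 mutants other than mutant 2.

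Neurod1 was at 0 CPM in the dorsal controls and at 0, 115, 0.85, 32.2 and 9.04 CPM in the mutants. Its mean was at least 182-fold above the control floor with all mutants and at least 61.0-fold without mutant 2, which held 73.2% of the summed level. Neurod4 was at 0 CPM in the controls and at 61.2, 52.6, 0, 0 and 0 CPM in the mutants. It was therefore restricted to mutants 1 and 2, the dorsal mutants whose Smarcc1 lay within the range of the controls. Its bound of at least 132-fold fell to 88.7-fold without mutant 2 and then rested on mutant 1 alone. Mutant 2 was the dorsal library that held both Neurod1 and Neurod4, while mutant 1 held Neurod4 with Neurod1 at 0 CPM.

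Hes6 was the member with RNA in all dorsal libraries. It was at 37.6, 26.9, 34.5 and 0.27 CPM in controls, the last of these from 4 counts, and at 108, 252, 102, 129 and 82.3 CPM in mutants. The groups did not overlap, and the mutant mean of 135 ± 67.5 CPM (SD, n = 5) was 5.43-fold the control mean of 24.8 ± 17.0 CPM (SD, n = 4), or 4.25-fold without mutant 2.

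Insm1 was at 0 CPM in dorsal controls and at 16.4, 6.26, 0, 15.4 and 1.93 CPM in mutants, at least 46.5-fold over the floor. As with Neurod4, mutant 3 lacked it. Dll3 was at 0, 0, 0 and 0.54 CPM in controls and at 9.82, 6.44, 0.78, 19.7 and 4.05 CPM in mutants. These groups did not overlap, but the margin was thin, with 11 counts in mutant 3 against 8 counts in control 4. The control mean of 0.135 CPM lay under the floor, and the mutant mean of 8.16 CPM was at least 47.3-fold over that floor.

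Gadd45g varied least among the dorsal mutants, relative to its mean. It was at 0, 0, 0 and 7.47 CPM in dorsal controls and at 106, 38.3, 96.1, 102 and 125 CPM in mutants, so the groups did not overlap. The mean was 93.5 ± 32.7 CPM (SD, n = 5) in mutants and 1.87 ± 3.73 CPM (SD, n = 4) in controls, a ratio of 50.1. The control mean came from control 4 alone, and without that library the mutant mean was at least 575-fold over the floor of the other controls. Unlike Atoh7 and Neurod1, Gadd45g was lowest in mutant 2, and the ratio was 57.4 without it.

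Set against the number of genes tested, 3 of 8 members had every dorsal mutant above every control, as did 1.31% of the 16145 genes tested. Without dorsal mutant 1, 5 members did, as did 1.99% of genes. Another 4 members (Neurog2, Atoh7, Neurod1 and Insm1) were at the floor in every control and above it in at least 3 mutants, as were 1.1% of genes tested. All members but Hes6 needed mutant libraries to pass the filter on low counts, so the member counts in this paragraph are a description and no support. Exact permutation tests of log2(CPM + 1) (two-sided, 126 splits) gave p = 0.00794 for Hes6 and Gadd45g, the smallest p that this design allows, and p = 0.0159 for Dll3. The exact p was 0.0476 for Neurog2 and Insm1, 0.0873 for Atoh7 and Neurod1, and 0.444 for Neurod4. An exact p under 0.05 in this direction was found for 5 of 8 members and for 3.68% of genes. Without mutant 2 it was found for 3 members (Hes6, Dll3 and Gadd45g) and 1.87% of genes, and the exact permutation p of Neurog2 and Insm1 became 0.143. None passed after Benjamini-Hochberg adjustment over all genes tested, where the lowest adjusted p of this permutation test was 0.45. Within the batches that the labels name A and B (40 splits), the exact p was 0.025, the smallest possible, for Hes6, Dll3 and Gadd45g, 0.05 for Neurog2 and Insm1, 0.1 for Atoh7, 0.125 for Neurod1 and 0.5 for Neurod4.

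The edgeR quasi-likelihood test called 0 of 8 members in the dorsal stalk, with 0.0124% of all genes called, and its adjusted p ran from 0.84 (Atoh7) to 0.95 (Neurod4). At an unadjusted edgeR p under 0.05, 6 of 8 members were higher in mutants, against 2.68% of genes tested, the others being Neurod4 and Dll3. DESeq2, the tool named in the study's methods, called Neurog2, Atoh7, Insm1 and Dll3 (4 of 8, against 3.3% of genes) and gave no p for Gadd45g and Neurod1, in which it marked outlying counts, and limma voom called Gadd45g (1 of 8, against 0.254%). In edgeR without the filter on low counts Atoh7, Neurod1 and Gadd45g were called (3 of 8, against 0.385%), and with the newer quasi-likelihood method Gadd45g (1 of 8, against 0.242%). Over the 18 alternatives the adjusted p ran from 6.04e-09 to 1 for Atoh7, from 0.00158 to 1 for Gadd45g, from 0.0155 to 1 for Dll3 and from 0.27 to 1 for Hes6. All 8 members had a positive fitted difference, with a median of 8.28 on the log2 scale, or 6.91 with the 5 members at the control floor set to their bounds, beside −0.04 for all genes tested. Hes6 was the 1 member that would have passed the filter on low counts through control libraries alone. The other 7 needed mutant libraries to pass it, and Neurog2, Atoh7, Neurod1 and Neurod4 passed through mutant libraries only, so these counts and medians are a description and no support.

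**Figure D2:**
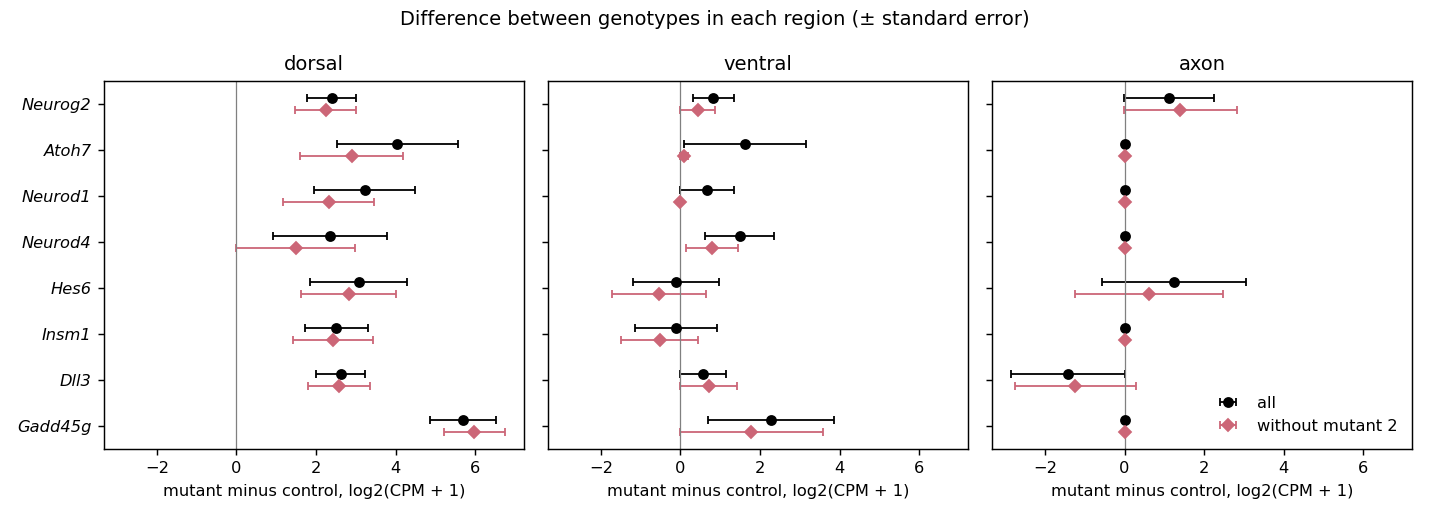
Mutant minus control mean of log2(CPM + 1) for each member (± standard error) in dorsal, ventral and axon libraries, with all 5 mutants (black) and without mutant 2 (red). In the dorsal stalk all 8 differences are positive in both settings, from 2.34 to 5.69 with all mutants, and Atoh7 in the ventral stalk falls from 1.62 to 0.09 without mutant 2.

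In the ventral stalk, Neurog2, Atoh7, Neurod1, Neurod4 and Dll3 were at 0 CPM in all 4 ventral controls. Ventral mutants 1 to 5 held 2, 7, 2, 3 and 5 members above the floor, and the controls 1, 3, 1 and 1. Mutant 2 again held the most.

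Atoh7 was at 0, 212, 0, 0.28 and 0 CPM in ventral mutants, so 99.9% of it came from mutant 2. Neurod1 was found in mutant 2 only, at 9.40 CPM. Without that library Neurod1 was at the floor in both genotypes, and the mean of Atoh7 was under the floor of the controls.

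Neurog2 was at 4.24 CPM in ventral mutant 2, 2.33 CPM in mutant 5 and 0 CPM in the others, and Neurod4 was at 5.54, 18.4, 0, 0 and 0.37 CPM. Dll3 was at 6.12 CPM in mutant 5 and at 0 CPM in the rest. Neurog2 was thus found in 2, Neurod4 in 3 and Dll3 in 1 of the 5 ventral mutants.

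Hes6 was at 5.06, 28.4, 24.0 and 33.4 CPM in ventral controls and at 1.04, 61.3, 34.2, 46.6 and 8.88 CPM in mutants. The groups overlapped fully, with means of 22.7 ± 12.4 CPM (SD, n = 4) and 30.4 ± 25.3 CPM (SD, n = 5). Insm1 was at 0.05, 11.1, 0 and 0 CPM in controls and at 0, 4.43, 0, 0 and 1.96 CPM in mutants, so here control 2 was the highest library. Gadd45g was at 0.10, 10.6, 0 and 0 CPM in controls and at 0, 35.2, 28.9, 57.99 and 0 CPM in mutants, which also overlapped. Of the 8 members, 0 had all ventral mutants above all controls (0.52% of genes tested did), and the exact permutation p ran from 0.246 (Gadd45g) to 1 (Neurod1 and Dll3). The edgeR test called 0 members, with 0% of genes called, and gave an unadjusted p under 0.05 for 0 of them (1.28% of genes were higher at that level). DESeq2 called Dll3 (1 of 8, against 2.12% of genes), which rests on mutant 5, and limma voom called 0 of 8 (0.0372% of genes).

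In the axon region, Atoh7, Neurod1, Neurod4, Insm1 and Gadd45g were at 0 counts in all 9 libraries. Over all genes, 8681 to 12210 had more than 3 counts in axon controls and 7795 to 9457 in axon mutants. Neurog2 was at 51.1 CPM (875 counts) in axon mutant 4, the highest Neurog2 level of the series, at 1 count in control 3 and at 0 in the 7 others. No other member except Hes6 was above the floor in axon mutant 4. Dll3 was at 27.3, 0, 0 and 11.6 CPM in axon controls and at 0, 0, 0, 0 and 10.6 CPM in mutants, so that its highest level of the series was in a control.

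Hes6 was at 0, 1.53, 58.2 and 24.7 CPM in axon controls and at 13.2, 104, 0, 50.6 and 28.0 CPM in mutants. It ranged from 0 upward in both genotypes. For the 3 members with counts in this region 0 were non-overlapping (0.24% of genes tested were), the edgeR test called 0 (0% of genes) and gave an unadjusted p under 0.05 for 0 (0.861% of genes were higher). DESeq2 called Neurog2 (8.27% of genes), a call that rests on a single library, and limma voom 0 (0.3% of genes).

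Regions of the same embryos were compared next, and these comparisons use the same dorsal mutant libraries as above. The main fits had no embryo term and so ignored this pairing. Within mutants the fitted level of all 8 members was higher in the dorsal than in the ventral stalk, yet edgeR called 0 of 8, as of all genes (0%). Hes6, at a mean of 135 CPM dorsally and 30.4 CPM ventrally, was higher dorsally by 2.18 ± 0.77 (SE) on the log2 scale (edgeR adjusted p = 0.38). It was the single member under an unadjusted edgeR p of 0.05, as were 6.53% of genes in this direction, and DESeq2 and limma voom called 0 members (2.85% and 0.148% of genes). Against the axon region, Gadd45g was the 1 of 8 members called by edgeR (0.545% of genes were). It was at 38.3 to 125 CPM in the dorsal mutants and at 0 in all axon mutants, at least 576-fold higher (edgeR adjusted p = 0.00518). Dorsal mutants had 11044 to 13299 genes with more than 3 counts and axon mutants 7795 to 9457. The median fitted difference of all genes was 0.33 on the log2 scale. How far fewer detected genes bear on the call was not tested. At an unadjusted edgeR p under 0.05, 5 of 8 members were higher in the dorsal stalk, as were 19.1% of genes. DESeq2 called Gadd45g, Atoh7, Neurod1, Neurod4 and Insm1 (5 of 8, against 10.1%), limma voom the same genes but Neurod4 (4 of 8, against 4.32%), and edgeR without the filter Gadd45g and Atoh7 (2 of 8, against 0.399%). The edgeR call of Gadd45g held without each single library (adjusted p up to 0.0411) and without mutant 2 (adjusted p = 0.0177). The call was lost with the embryo as a block (adjusted p = 0.37 in edgeR), and over the 17 alternatives the adjusted p ran from 6.65e-25 to 0.37.

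In controls, no member was called between dorsal and ventral stalk (0% of genes), and Insm1 alone had an unadjusted p under 0.05, being lower dorsally (edgeR adjusted p = 0.62), as were 3.34% of genes. That difference rests on the 11.1 CPM of ventral control 2. DESeq2 and limma voom called 0 members there (1.51% and 0.112% of genes). Whether the genotype difference itself differed between regions was tested as an interaction over all 27 libraries. The main interaction fit also had no embryo term. Between dorsal and ventral stalk edgeR called 0 of 8 members (0.00612% of genes) and between dorsal stalk and axon region 0 of 8 (0.0245%). The unadjusted edgeR p was under 0.05 for Insm1 in the former (3.66% of genes had a more positive dorsal effect at that level) and for Dll3 in the latter (7.65% of genes). DESeq2 called 1 member (Insm1, against 3.61% of genes) and 4 members (Atoh7, Neurod4, Insm1 and Dll3, against 9.09%), and limma voom 0 in each (0.0674% and 0.294% of genes). For members at 0 in the controls of both regions the interaction could not be estimated with any precision. A difference in the genotype effect between regions was not shown for any member in edgeR.

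**Figure D3:**
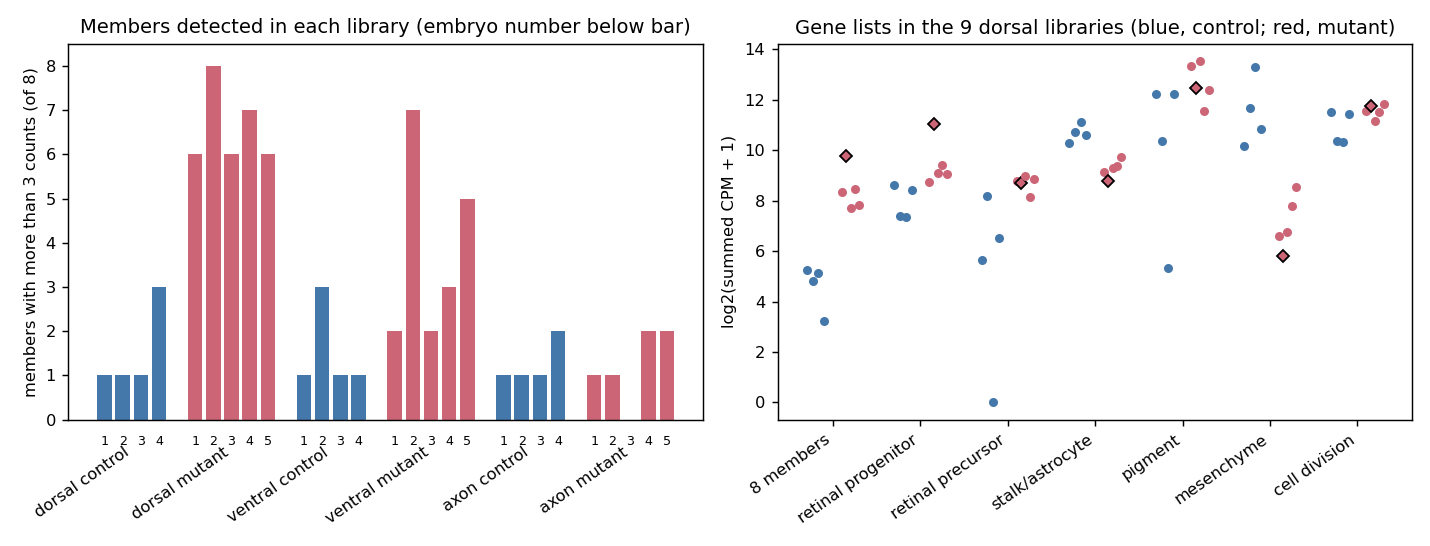
Left, number of the 8 members with more than 3 counts in each library. Right, log2(summed CPM + 1) of 7 gene lists in the 4 control (blue) and 5 mutant (red; diamond, mutant 2) dorsal libraries. The members and retinal progenitor markers are higher, and the mesenchyme and the stalk and astrocyte markers lower, in every dorsal mutant than in any control, and dorsal mutant 2 lies above the others for retinal progenitor markers.

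Per kb of exon, the median level over dorsal mutants ran from Gadd45g (86.8 CPM per kb) and Hes6 (59.8) through Atoh7 (14.8), Neurod1 (3.31), Neurog2 (3.16), Dll3 (2.26) and Insm1 (2.02) to Neurod4 (0). Gadd45g was above Hes6 in 4 of 5 libraries, Hes6 above Atoh7 in 4, and Atoh7 above Neurod1 in 4. Each neighbouring pair in this order overlapped in range, so no step between neighbours exceeded the spread. The library with the highest level differed between members. Mutant 2 was highest for Atoh7, Neurod1 and Hes6, mutant 4 for Neurog2 and Dll3, mutant 1 for Neurod4 and Insm1, and mutant 5 for Gadd45g. Hes6, Dll3 and Gadd45g were above the floor in all 5 dorsal mutants, and Neurod1 and Neurod4 were found together in 1.

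The 6 genes outside the list with the profile most like the members' mean profile over the 27 libraries were Col9a3 (r = 0.81), Ifitm10 (0.80), Slc38a8 (0.80), Ppp1r17 (0.79), Rax (0.79) and Helt (0.78). These are descriptive Pearson correlations of log2(CPM + 1), over libraries that share embryos, regions and batches. Slc38a8, an amino acid transporter, was at a mean of 4.68 CPM in dorsal controls and 288 CPM in dorsal mutants, with a highest control of 18.7 CPM and a lowest mutant of 128 CPM. Helt, a bHLH-Orange repressor, was at 0 in dorsal controls and at a mean of 48.3 CPM in dorsal mutants, the lowest of which was at 0. Rax is an eye-field homeobox factor and was at a mean of 0.70 CPM in dorsal controls and 3.97 CPM in dorsal mutants. Without the dorsal and ventral libraries of mutant 2 the correlations were 0.61 to 0.89.

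Genes that work with the members were less uniform. Of 21 other proneural and neurogenic factors 13 were tested, 0 were called in the dorsal stalk and 7 had a higher and 6 a lower fitted level in mutants, with a median of 0.52 on the log2 scale. At an unadjusted p under 0.05 in edgeR, 4 were higher, as were 2.68% of all genes tested, and 0 lower. Olig2, a bHLH factor of motor neuron and oligodendrocyte precursors, was at 0 CPM in dorsal controls and at 9.17, 0, 0.14, 23.7 and 1.46 CPM in mutants. Btg2, an antiproliferative gene of neurogenic progenitors, was the 1 gene of this list without overlap (1.31% of genes tested were higher without overlap). It was at 0 to 77.4 CPM in dorsal controls and 182 to 386 CPM in mutants.

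Of 23 Notch pathway genes 22 were tested in the dorsal stalk, 0 were called, and 11 were fitted higher and 11 lower, with a median of 0.07 on the log2 scale. Hes1, the repressor of proneural genes, was at 260, 325, 283 and 187 CPM in dorsal controls and at 78.4, 90.7, 70.6, 101 and 93.7 CPM in mutants. It was the 1 gene of the list without overlap (1.61% of genes tested were lower without overlap) and was lower in mutants by 1.52 ± 0.33 (SE) on the log2 scale (edgeR p = 0.000588, adjusted p = 0.38, exact permutation p = 0.00794). Its ventral groups overlapped, at 297 to 366 CPM and 187 to 398 CPM. Hes5, another effector of Notch, was at 0, 0, 0 and 3.90 CPM in dorsal controls and at 9.63, 53.4, 0, 14.7 and 27.4 CPM in mutants. Dll1, a Notch ligand, had at most 1 count in dorsal controls and was at 0.28, 21.3, 0, 18.6 and 9.17 CPM in mutants. Hes1 thus lay on the opposite side to Hes6, Dll3 and Gadd45g, the members without overlap between the dorsal genotypes. The other members were at 0 CPM in at least 1 dorsal mutant, as in the controls. Hes5 and Dll1 lay on the side of Hes6, Dll3 and Gadd45g in 4 and 3 of 5 mutants. The Id inhibitors and E proteins, which block or partner bHLH factors, had 0 of 7 called, with the smallest edgeR p for Tcf4 and Id2 (adjusted p = 0.95 and 0.99).

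**Figure D4:**
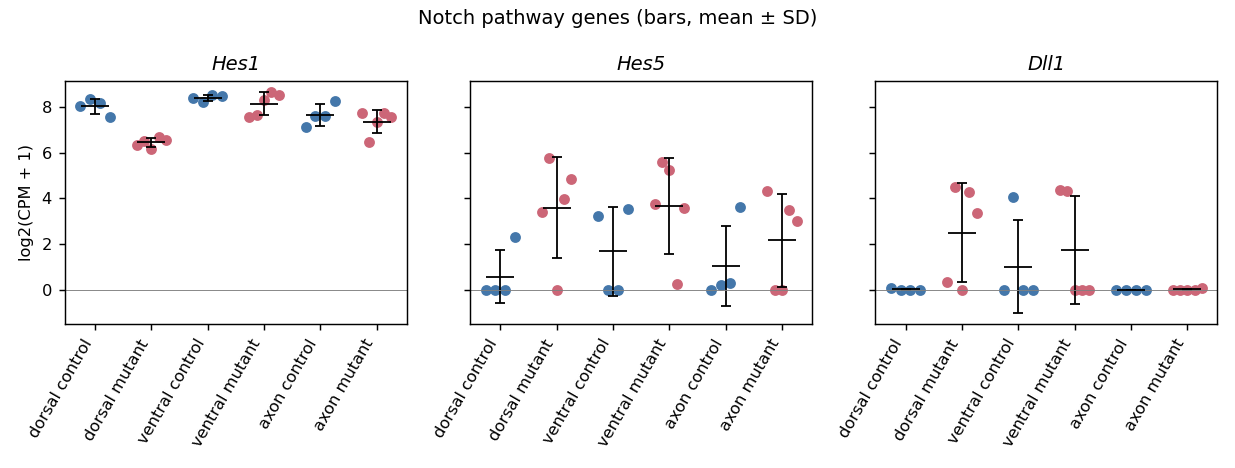
Levels of Hes1, Hes5 and Dll1 as log2(CPM + 1) in 27 libraries by region and genotype, with mean ± SD of 4 control (blue) or 5 mutant (red) libraries. Hes1 is lower in every dorsal mutant (at most 101 CPM) than in any dorsal control (at least 187 CPM), and its ventral and axon groups overlap.

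Other gene lists also differed between the dorsal genotypes, and their part in the members' difference was not tested. The summed level of 9 mesenchyme markers was 1144 to 10163 CPM in dorsal controls and 55.6 to 373 CPM in dorsal mutants. None of the 9 was at the floor in either group, and all 9 were fitted lower, led by Dcn and Col1a1. Of them 7 were lower without overlap, as were 1.61% of genes tested. The 9 stalk and astrocyte progenitor markers summed to 1258 to 2200 CPM in controls and 445 to 862 CPM in mutants. Of these markers 4 were lower without overlap (Slc1a3, Nfib, Nfia and Sox9), against the same 1.61% of genes tested. Pigment cell markers summed to 39.5 to 4864 CPM and 2999 to 11910 CPM, with all 7 fitted higher, Dct and Tyr first by p. The 10 cell division genes, led by Pcna and Mki67, were all fitted higher, with 0 called. Endothelial markers summed to 191 to 361 CPM and 43.2 to 206 CPM, with 6 of 6 fitted lower and Cldn5 and Tek first by p.

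Retinal markers were mixed. The 8 retinal progenitor markers summed to 165 to 396 CPM in dorsal controls and 425 to 2116 CPM in dorsal mutants, the highest being mutant 2, and Pax6 and Lhx2 did not overlap. Other retinal precursor factors summed to 0 to 292 CPM and 284 to 498 CPM, with Otx2 and Onecut2 higher in every mutant. Of the genes tested, 1.31% were higher in every dorsal mutant than in any dorsal control. RGC and neuron genes are the later products of neurogenesis. They summed to 45.2 to 1457 CPM in dorsal controls, highest in control 2, and 86.0 to 516 CPM in dorsal mutants. These overlapped, 0 of 12 tested were called or had an unadjusted p under 0.05 in edgeR (smallest for Elavl4 and Nefl), and Pou4f2 was at the floor in both.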

How the data were processed

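Pieces of fresh-frozen E14 sections were captured by laser, and their RNA was reverse transcribed, amplified by PCR and sequenced as 150-base single-end reads without molecular identifiers. Per the labels and the study's methods, the authors aligned reads to mm10 and deposited raw read counts per gene, with STAR, HTSeq and Salmon named in the submitters' processing notes. Versions, annotation release and strand setting are not given in the sources used here, so overlapping and antisense genes cannot be told apart with certainty. Samples of E12 were not analysed here.

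Of 55487 IDs, 55227 matched GENCODE M21, and the 260 others held 0.00287% of counts. CPM is the count over the library's total count. The 16330 genes that exceeded 10 counts in 3 or more of the 27 libraries were fitted with edgeR 4.0.16 (quasi-likelihood, TMM) in R 4.3.3, with the labels' batch as a term between genotypes. Batch A holds 1 control and 3 mutant embryos, and batch B 3 controls and 2 mutants. Calls required an adjusted p under 0.05 together with a log2 change of more than 0.58 either way. Exact permutation tests used a pseudocount of 1 CPM, so differences on that scale are understated for low genes. A gene at the floor in a group was compared through a bound, from 3 counts in each library, averaged over the group. Alternatives were DESeq2 1.42.0, limma 3.58.1 (voom), RLE scaling, no filter, the newer edgeR method, no batch term, each batch alone, a replicate block, a pseudocount of 0.1 and each library left out. Leaving out all libraries of mutant 2 was added after the data were seen. The fits were tested on simulated data, with known changes given to genes well above the floor. No gene was set to be absent from the controls and present in the mutants, so most members' pattern was not covered.

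The 3 pieces of an embryo share its number by the study's sampling, and the deviations of 2 regions of an embryo from their group means correlated by -0.02 to 0.111 across genes. Each library comes from a separate embryo within a group, and p-values measure the spread between these libraries. Between regions the groups share embryos. The main fits of regions and of the interaction had no embryo term, so their p-values ignore this pairing. The members and lists were chosen with earlier results of these data known. The text names the members, Smarcc1, Hes1, Hes5, Dll1, from each list the 2 genes with the smallest dorsal edgeR p, and the 6 genes most like the members. Btg2, Lhx2, Nfia, Sox9 and Pou4f2 were named after their values were seen. Some genes of the lists are not reported here.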

Additional observations from a re-analysis of the deposited data

Results flagged for a closer look

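Among 28 groups in which a member had any count, 13 held 1 library far from the rest by Dixon's test, which chance would give in about 5% of groups. Many of these groups are otherwise at or near 0, where a single library with reads is enough. The dorsal library of mutant 2 stood out for Atoh7 (405 CPM), Neurod1 (115 CPM) and Hes6 (252 CPM), and its ventral library for Atoh7 (212 CPM) and Neurod1 (9.40 CPM), the same libraries that held the most Fgf15. Among controls, dorsal control 4 stood out for Dll3 (0.538 CPM) and Gadd45g (7.47 CPM), and it was also the dorsal control with the least Hes6. Ventral control 2 stood out for Gadd45g (10.6 CPM) and Insm1 (11.1 CPM). Mutant 5 stood out for Dll3 in the ventral (6.12 CPM) and the axon (10.6 CPM) region. Axon mutant 4 stood out for Neurog2 (51.1 CPM), and axon control 3 for Neurog2 at a single read (0.0596 CPM).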

How the results depend on the processing

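Of 552 recomputed values, 520 were scored as unchanged and 4 as reversed. A fit or a permutation p was unchanged if it stayed on its side of the threshold, the fit also without a reversed sign. For a count of members, an equal or close count was enough. The number of members called in the dorsal genotype comparison, 0 in edgeR, was 4 by DESeq2, 1 by limma voom, 3 without the count filter and 1 by the newer edgeR method. By DESeq2 it was 1 instead of 0 in the ventral stalk, the axon region and the dorsal-ventral interaction, and 4 instead of 0 in the dorsal-axon interaction. Between dorsal and axon mutants, 1 in edgeR became 5 by DESeq2, 4 by limma voom, 2 without the filter and 0 with the embryo as a replicate block. Leaving out a library in turn left these counts at 0 to 0 (dorsal against axon mutants, 1 to 1), and the members without overlap in the dorsal stalk at 3 to 5, with 5 without dorsal mutant 1. Hes6 in the ventral stalk (0.79 on the log2 scale) became -0.067 by limma voom, -0.077 in batch B alone and -0.088 without ventral control 1, with -0.088 to 1.66 as the range over libraries left out. The Gadd45g dorsal-ventral interaction (2.49) became -3.27 without ventral control 2, with a range of -3.27 to 10.14. The causes were not tested.

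Over all genes, calls in the dorsal genotype comparison were 2 in edgeR, 532 by DESeq2, 41 by limma voom, 101 without the filter, 39 by the newer method, 8 without the batch term and 0 with the replicate block or in either batch alone. The ventral calls were 0, 342, 6 and 8 in the first 4 of these, and the axon calls 0, 1238, 45 and 10. Between dorsal and ventral mutants they were 0, 460, 24 and 23 (69 by the newer method), between dorsal and axon mutants 86, 1586, 682 and 94 (150), and between dorsal and ventral controls 0, 243, 18 and 11 (9). The median dorsal difference of all genes was -0.04 in edgeR, 0.15 by limma voom and 0.42 in batch A alone. Equal replicate numbers of control and mutant mark no shared litter in the labels, and their deviations correlated by -0.052 to 0.025. With the replicate number as a block 0 members were called in each region. Members with 11 counts or fewer in a library have no firm level at these depths.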
